A study of Mus musculus with 577 samples.

Results

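Single oocytes were compared with single granulosa cells cut by laser capture microdissection from alcohol-fixed mouse ovarian sections and amplified with DRaqL-SC3-seq, a 3′-end single-cell RNA-seq method in which cells are lysed with a denaturing detergent that is then quenched. All libraries named as oocytes or granulosa cells in the gene count table of this preparation were taken, which gave 44 oocytes and 57 granulosa cells of the 577 samples in the series. The ovaries came from female mice aged 8 weeks, were snap-frozen, embedded in polyvinyl alcohol, cut at 15 μm and stained with cresyl violet in isopropanol. Of the oocytes, 14 lay in primary follicles and 30 in secondary-to-early antral follicles. Of the granulosa cells, 31 were neighboring and 26 non-neighboring to the oocyte, and all came from secondary-to-early antral follicles, so that granulosa cells of primary follicles were not in the comparison. A further 3 granulosa cells with mixed profiles had been kept apart by the authors. The study's methods name a separate PCR program for oocytes, so amplification and cell type cannot be told apart here. No genotype or treatment was labelled. The labels name no mouse for a cell, so each cell type was handled as 1 sample, no p-value was computed, and the spread given is that among cells.

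Oocytes and granulosa cells grow as a unit inside the follicle. The oocyte builds the zona pellucida, stores messenger RNAs and proteins for the embryo, and rests in meiotic prophase, while the surrounding granulosa cells divide, respond to follicle-stimulating hormone and make inhibin and estradiol. The cell types are joined by gap junctions and exchange secreted factors: the oocyte releases GDF9 and BMP15, and granulosa cells supply KIT ligand, C-type natriuretic peptide signals, amino acids, pyruvate and cholesterol.

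The number of reads on genes was 873206 to 2338750 per oocyte, with a median of 1528483.5, and 162033 to 1429292 per granulosa cell, with a median of 573406. Levels are given as RPM, a gene's reads scaled to a common library total. A gene's difference is the mean of log2 (RPM+1) over the oocytes minus that over the granulosa cells, with 1 added so that zeros can be used, which understates the change of low genes. Cells without a read pull the mean down. A gene read in few but high granulosa cells therefore lies further to the oocyte side here than by its mean RPM. Calls by mean RPM are given over all genes and for some of the groups below. A gene was called higher in a cell type where this difference was beyond 1.8 in size, and 15176 genes with log2 (RPM+1) above 4 in at least 1 cell were examined. RPM is relative to each library's total, so less RNA of a gene per cell and more RNA of other genes cannot be told apart. The granulosa cells numbered GC073 to GC100 (15 cells) held more oocyte transcripts than GC001 to GC069 (42 cells), with medians of 589.6 and 2.77 RPM for Gdf9, 36.1 and 0 RPM for Zp2 and 82.6 and 0 RPM for Zp1, and values without the former are given where they matter.

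The 4 genes that mark the cell types lay on the side their names call for in their medians. Zp2, a zona pellucida glycoprotein, ranged from 1429.6 to 7025 RPM in oocytes, with a median of 3252, and from 0 to 351 RPM in granulosa cells, with a median of 3.27. Gdf9, the oocyte-secreted growth factor, had 252 to 11724 RPM in oocytes (median 6405) and 0 to 2408 RPM in granulosa cells (median 24.6). Zp2 did not overlap between the cell types, whereas Gdf9 did. Inha, the inhibin α subunit, ranged from 4.02 to 996 RPM in oocytes (median 127) and from 890.0 to 17886 RPM in granulosa cells (median 4675), and Foxl2, a transcription factor that maintains granulosa cell fate, from 0 to 78.7 RPM (median 10.7) and 0 to 598 RPM (median 34.4). The difference was 9.07 for Zp2, 7.23 for Gdf9 and -5.43 for Inha, while that of Foxl2, at -1.49, did not pass the threshold. Over the whole marker list of each type, the 12 oocyte markers summed to 10138 to 40261 RPM in oocytes and 142 to 10243 RPM in granulosa cells, and the 12 granulosa cell markers to 42.4 to 1580.4 RPM in oocytes and 1659 to 30684 RPM in granulosa cells. The granulosa cell marker sums did not overlap, whereas in the oocyte markers the highest granulosa cell exceeded the lowest oocyte. Within the oocytes, the granulosa cell marker sum had a median of 588 RPM in primary follicles and 145 RPM in later ones. Within the granulosa cells, the oocyte marker sum had a median of 1673 RPM in neighboring and 656 RPM in non-neighboring cells. The study could not exclude material from adjacent cells in a section. Whether granulosa cell transcripts read in oocytes, here and below, were the oocyte's own was not tested. Among the defining markers, Amh, Kitl, Inhba and Inhbb had a median of 0 in granulosa cells, and Ddx4, a germ cell RNA helicase, went against its label, with a median of 357 RPM in oocytes and 641 RPM in granulosa cells. Ddx4 is part of the oocyte marker sum, and in GC001 to GC069 its median was 704.9 RPM. Reads were counted within 10 kb of annotated 3′ ends, and whether the reads counted for Ddx4 came from that gene's own transcript was not tested.

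**Figure D1:**
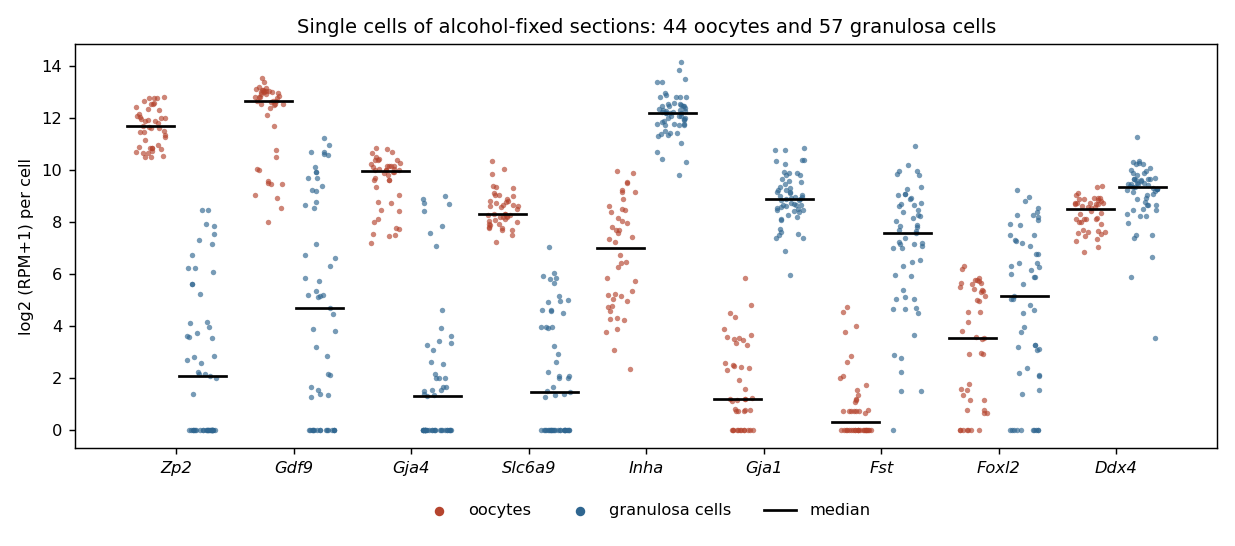
The vertical axis is log2 (RPM+1) of a gene in each cell, points are the 44 oocytes and 57 granulosa cells, and bars are medians. Zp2 and Slc6a9 (higher in oocytes) and Gja1 (higher in granulosa cells) separate the cell types without overlap, Gdf9, Gja4, Inha and Fst separate the medians, and Foxl2 and Ddx4 overlap broadly.

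Over all genes the difference was 1.57 at the median, with quartiles of 0.32 and 2.88. The call rule gave 6882 genes higher in oocytes, 45.3% of those examined, and 290 higher in granulosa cells, 1.91%. When the mean RPM of each cell type was taken before the logarithm, so that every read counted, the median was -0.03 and the calls were 2463 (16.2%) and 1928 (12.7%). Subtracting the median of all genes from each difference gave 2626 (17.3%) and 1649 (10.9%). Thus 96.0% of the calls were on the oocyte side with the mean of logarithms, 56.1% with the logarithm of means and 61.4% relative to the median. The gene groups below are therefore read against the all-gene median of 1.57, and "relative to all genes" refers to it. Counts of called members stand beside 45.3% and 1.91% of all genes, or 17.3% and 10.9% relative to all genes. Counts with the logarithm of means stand beside 16.2% and 12.7%. Of the 44 gene lists described, 17 had a median above that of all genes in the comparison and in all of 15 alternatives, and 11 lay below it in all of them. The other 16 changed side in at least 1.

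**Figure D2:**
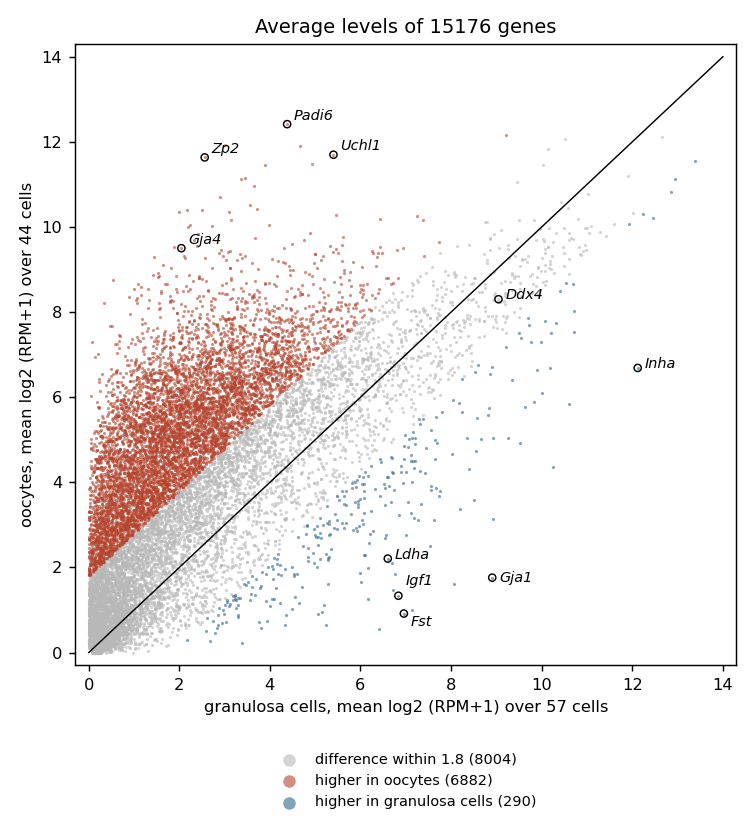
Each point is a gene, placed by its mean log2 (RPM+1) over 57 granulosa cells (horizontal axis) and over 44 oocytes (vertical axis), colored by whether the difference is beyond 1.8, with the diagonal marking equal means. The cloud lies above the diagonal, with 6882 genes called on the oocyte side, and Inha, Fst, Igf1, Ldha and Gja1 stand well below it.

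A total of 17 genes (0.112% of those examined) were higher in every oocyte than in any granulosa cell, and Gja1 alone (0.00659%) was higher in every granulosa cell than in any oocyte. With GC001 to GC069 only, the numbers were 47 (0.31%) and 2 (0.0132%). Ordered by difference, the first 10 of the 17 were Zp2, Khdc1a, Khdc1b, Dcpp2, Ooep, Dcpp1, Tmem255b, Figla, Tesc and Slc6a9. Khdc1a reached 1469.8 RPM in oocytes, with a median of 520.0, and ranged from 0 to 26.2 RPM in granulosa cells, 16 of which had a read of it. Figla, the basic helix-loop-helix factor that drives the zona genes, ranged from 25.1 to 778 RPM in oocytes and reached 4.24 RPM at most in the granulosa cells, 5 of which had a read. Dcpp1, Dcpp2 and Dcpp3, similar genes for secreted demilune and parotid cell proteins, were all in this set, with oocyte medians of 135, 268 and 60.4 RPM, 10 granulosa cells or fewer with a read of each, and no sure split of reads among the copies. The remaining genes were Wscd2, Iqca, Fkbp6, Morc1, Psenen and Sohlh2. Sohlh2, a germ cell helix-loop-helix factor, had no read in 57 granulosa cells, and Psenen, a γ-secretase subunit, held the narrowest range in oocytes of these genes, from 594 to 1221 RPM.

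The stretch upstream of the start site is shown for Figla, Khdc1b and Gja1, genes without overlap in either direction whose windows hold no annotated exon. The windows of Dcpp1 and Tesc, also without an exon, held 1 E-box each and are not printed. These are the 250 bases before the RefSeq start on GRCm38.p6, read on the plus strand in all 3 cases, at chr6:86016941-86017190 for Figla, chr1:21383306-21383555 for Khdc1b and chr10:56377050-56377299 for Gja1, and capitals mark the letters CANNTG, the E-box read by helix-loop-helix factors, which matches on both strands at once.
Figla: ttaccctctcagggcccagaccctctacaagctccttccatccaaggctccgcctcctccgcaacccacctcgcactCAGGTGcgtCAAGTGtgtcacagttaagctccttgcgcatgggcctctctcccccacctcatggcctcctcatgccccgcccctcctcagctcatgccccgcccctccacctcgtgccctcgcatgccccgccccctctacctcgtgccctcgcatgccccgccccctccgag
Khdc1b: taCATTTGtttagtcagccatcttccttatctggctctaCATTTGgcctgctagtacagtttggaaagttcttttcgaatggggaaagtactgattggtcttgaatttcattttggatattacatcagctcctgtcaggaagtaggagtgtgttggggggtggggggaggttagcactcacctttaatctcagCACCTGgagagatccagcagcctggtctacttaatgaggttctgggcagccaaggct
Gja1: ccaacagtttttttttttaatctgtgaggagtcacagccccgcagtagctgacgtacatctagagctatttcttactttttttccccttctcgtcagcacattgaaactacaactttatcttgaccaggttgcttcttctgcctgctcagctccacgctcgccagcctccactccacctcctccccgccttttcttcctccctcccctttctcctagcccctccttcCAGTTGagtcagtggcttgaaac
Figla held 2 E-boxes, starting 173 and 164 bases before the start, Khdc1b held 3, at 248, 211 and 57 bases, and Gja1 held 1, at 23 bases. The same letters stood in 59.3% of the 15032 windows matched to examined genes and in 66.2% of all 32851 mouse promoter windows of this length. A match is a description and not a binding site.

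The structural genes of the oocyte surface and the growth factors it secretes were high in oocytes. Of 9 genes of the zona pellucida and the egg surface, 7 were higher in oocytes and none in granulosa cells, and the same 7 passed relative to all genes, with a median difference of 7.45 against 1.57 for all genes. They took 0.704 to 2.41% of the reads of an oocyte and 0 to 0.451% of those of a granulosa cell. Zp3, the zona protein bound by sperm, had a median of 4354 RPM in oocytes and 1.74 RPM in granulosa cells, and Astl, the cortical granule protease ovastacin that cleaves ZP2, 532 RPM and 0. The 2 members that were not called, Adam9 and Mfge8, had differences of -0.15 and -0.06, and passed on the granulosa cell side with the logarithm of means, at -3.12 and -1.82.

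Of 7 secreted factors and receptors of the oocyte, 5 were higher in oocytes, with a median of 4.09. Bmp15 ranged from 15.6 to 1910.2 RPM (median 844) in oocytes and from 0 to 1011 RPM (median 1.83) in granulosa cells. Its level and that of Gdf9 were not even among oocytes: the median of Bmp15 was 64.9 RPM in oocytes of primary follicles and 988 RPM in those of secondary-to-early antral follicles, and that of Gdf9 736 and 7744 RPM. Kit, the receptor tyrosine kinase on the oocyte, ran from 20.5 to 453 RPM in oocytes and was read in 13 granulosa cells, with a highest value of 315 RPM. Kitl, its ligand from granulosa cells, was low in these libraries, with medians of 3.08 and 0 RPM, and did not separate the cell types.

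Among 15 oocyte transcription factors, 13 were higher in oocytes (11 relative to all genes) and none in granulosa cells, with a median of 4.47. Nobox, a homeobox factor needed for follicle growth, had 263 to 1042 RPM in oocytes (median 802) and 0 to 1329 RPM in granulosa cells (median 0). The highest granulosa cell was in GC073 to GC100, and GC001 to GC069 reached 178 RPM. Lhx8, a LIM homeobox factor of early folliculogenesis, ranged from 91 to 823 RPM in oocytes and from 0 to 153 RPM in granulosa cells. Sohlh1, which acts with Sohlh2 before and during primary follicle growth, differed within the oocytes, with medians of 482 RPM in primary follicles and 5.55 RPM in later ones, and was read in 2 granulosa cells.

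The maternal effect genes were high in oocytes throughout. All 9 genes of the subcortical maternal complex, a protein assembly under the oocyte's membrane, were higher in oocytes, also relative to all genes, with a median of 6.92. The complex took 0.731 to 2.89% of an oocyte's reads (median 1.58%) and 0 to 0.83% of a granulosa cell's (median 0.0251%). Padi6, a peptidylarginine deiminase of the cytoplasmic lattices, ran from 1781 to 14936 RPM in oocytes (median 6167) and 0 to 2399 RPM in granulosa cells (median 25.5). Nlrp5, also called Mater, ran from 431 to 3954 RPM and from 0 to 982 RPM. Both overlapped only at the upper end of the granulosa cells, whereas Ooep, with 1114 to 4592 RPM in oocytes and at most 1007 RPM in granulosa cells, did not overlap.

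The NLRP family, innate immune-type proteins that are in part specific to the oocyte, showed 12 of 12 members higher in oocytes, 10 relative to all genes, with a median of 5.33. Nlrp14 had oocyte and granulosa cell medians of 2331 and 5.67 RPM and Nlrp4f 584 and 0 RPM. Genes in oocyte-expressed clusters of the mouse genome, namely the Fbxw F-box genes and the Tcl1, Oog and Oosp genes, were higher in oocytes in 24 of 24 cases, also relative to all genes, and in 23 with the logarithm of means, with a median of 5.31. Fbxw15 ranged from 43.6 to 2690.4 RPM in oocytes and 0 to 2025 RPM in granulosa cells, and its oocyte median was 1919.6 RPM in the later follicles against 1769 RPM in all. The clusters as a whole took a median of 0.157% of reads in oocytes of primary follicles, 2.47% in those of later follicles and 0.0345% in granulosa cells. The copies within these families are near-identical in part, so the split of 3′ reads between neighbors is uncertain.

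Genes that store and time maternal messenger RNAs followed the same direction. Of 17, 15 were higher in oocytes (13 relative to all genes) and none in granulosa cells, with a median of 5.23 and read shares of 0.231 to 1.07% against 0.0102 to 0.516%. Dazl, which binds 3′ ends of messenger RNAs and promotes their translation, ranged from 51.9 to 689.6 RPM in oocytes. It was read in 12 granulosa cells, at no more than 3.48 RPM in GC001 to GC069 and at up to 316 RPM in GC073 to GC100. Zar1, a scaffold of the oocyte's mRNA storage domain, had medians of 2899 and 9.17 RPM, and Ybx2, the germ cell Y-box protein, 317 and 0 RPM. Pum2, a widely expressed translational repressor, did not pass, with a difference of 1.23.

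The enzymes of messenger RNA decay were more evenly divided. Of 22, 16 were higher in oocytes by the call rule. Relative to all genes 4 were higher in oocytes and 1 in granulosa cells, and with the logarithm of means 3 and 1. The median of 2.45 lay above that of all genes except among genes averaging at least 4. Btg4, the adaptor that brings the CCR4-NOT deadenylase to maternal transcripts, ranged from 11.5 to 2288 RPM in oocytes and 0 to 2267 RPM in granulosa cells. Its oocyte median was 609 RPM, and 1017 RPM in the later follicles. Cnot7, a deadenylase subunit found in most cells, had medians of 259.7 and 13.1 RPM.

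The medians of both meiotic lists below lay above that of all genes in the comparison and all 15 alternatives. Of 21 genes of meiotic arrest and maturation, 13 were higher in oocytes (9 relative to all genes, against 2 lower), with a median of 2.99, and Npr2 was higher in granulosa cells. In the oocyte, arrest rests on a constitutive receptor that keeps cyclic AMP high and on the entry of cyclic GMP from granulosa cells, which blocks the phosphodiesterase. Gpr3, that receptor, had a median of 69 RPM in oocytes, 3.17 RPM in primary and 85.3 RPM in later follicles, and was read in 10 granulosa cells. Pde3a, the phosphodiesterase, ranged from 3.07 to 178 RPM in oocytes (median 118) and 0 to 21.9 RPM in granulosa cells. Npr2, the guanylyl cyclase receptor, ranged the other way, from 0 to 24.4 RPM in oocytes (median 0) and from 0 to 1522 RPM in granulosa cells (median 131), with a difference of -4.91. Nppc, which encodes its ligand, was read in 6 oocytes and 2 granulosa cells and was not separated. The kinases Mos and Wee2, which act at maturation and arrest, had oocyte medians of 707 and 235 RPM and granulosa cell medians of 0.

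Of 22 genes of meiotic prophase, 12 were higher in oocytes (5 relative to all genes) and 1 lay lower relative to all genes, with a median of 2.24. These counts lay near the shares over all examined genes, 45.3% by the call rule and 17.3% relative to the median. Syce2, a central element of the synaptonemal complex, had medians of 479 and 5.27 RPM, and Sycp3, its axial element, 56.8 and 0 RPM. Sycp3 was 317 RPM at the median in oocytes of primary follicles and 38.7 RPM in later ones. The piRNA and small RNA pathway, which silences transposons in germ cells, showed 18 of 23 genes higher in oocytes and 12 relative to all genes, against 3 lower relative to all genes, with a median of 3.64. Tdrd1, a Tudor protein of the germ granule, ranged from 126 to 670.4 RPM in oocytes and 0 to 414 RPM in granulosa cells, where 18 cells had a read. Gtsf1, a PIWI cofactor, had medians of 439 and 0 RPM. Dicer1, which makes the small RNAs of the oocyte but acts in all cells, had medians of 199 and 4.86 RPM.

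Chromatin genes did not move as a block. In the DNA methylation list, 10 of 15 genes were higher in oocytes and 6 relative to all genes, with a median of 2.56 and read shares of 0.25 to 0.567% against 0.00768 to 0.295%. Dppa3, which shields methylation marks after fertilization and limits UHRF1, ran from 637 to 3193 RPM in oocytes (median 1255) and from 0 to 799 RPM in granulosa cells (median 0). Kdm1b, the histone demethylase required for maternal imprints, had medians of 366 and 0 RPM, and Dnmt1, the maintenance methyltransferase, 658 and 16.4 RPM. The de novo enzyme Dnmt3a differed by 2.19 and its partner Dnmt3l by 2.56. Dnmt3l was at a median of 1.32 RPM in primary follicles and 40.1 RPM in later ones.

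Of 30 Polycomb genes, 20 were higher in oocytes and 9 relative to all genes, against 1 lower, with a median of 2.16. With the logarithm of means 5 were higher in oocytes and 1 in granulosa cells. Phf1 and Pcgf6, accessory subunits of the complexes, had the largest differences, 5.73 and 5.20, and the core subunits Ezh2, Eed and Suz12 differed by 3.29, 3.52 and 2.16. Of 8 linker histones, 3 were higher in oocytes, and the median of 1.35 lay below that of all genes except in 3 alternatives (no filter, genes averaging at least 4 and oocytes of later follicles). H1foo, the oocyte linker histone, stood apart from its family, with 291 to 8379 RPM in oocytes (median 5300.4) and 0 to 3850.2 RPM in granulosa cells (median 27.3). Among 32 chromatin remodelers and histone chaperones, 16 were higher in oocytes and 6 relative to all genes, against 4 lower relative to all genes. Their median of 1.92 fell to -0.21 with the logarithm of means and lay below that of all genes there and among genes averaging at least 4. Npm2, the nucleoplasmin that decondenses sperm chromatin, had medians of 1169 and 1.64 RPM.

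The granulosa cell identity genes were the reverse. Of 20 measured, 9 were higher in granulosa cells and 16 relative to all genes. The median difference was -1.27, and the genes took 0.244 to 2.51% of reads in granulosa cells against 0.0173 to 0.226% in oocytes, without overlap. Fshr, the receptor for follicle-stimulating hormone, ranged from 0 to 3399.9 RPM in granulosa cells (median 276, read in 56 cells) and from 0 to 55.1 RPM in oocytes (median 4.24). Hsd17b1, the enzyme that converts estrone to estradiol, was read in all 57 granulosa cells, from 1.85 to 1176 RPM, and at 0 to 15.3 RPM in oocytes. Nr5a2, a nuclear receptor of steroidogenic cells, had medians of 508 RPM in granulosa cells and 66.7 RPM in oocytes. The transcription factor gene Wt1 differed by -2.37. The members called in the other direction, Emx2 and Dmrt1, had differences of 2.09 and 1.97, and neither passed relative to all genes.

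Genes of the inhibin and activin system took 0.142 to 2.68% of granulosa cell reads and 0.0079 to 0.111% of oocyte reads, again without overlap. The marker Inha weighed heavily in this share, with medians of 4675 RPM in granulosa cells and 127 RPM in oocytes. The list's medians were 0.516 and 0.0224% of reads. Of 15 genes, 4 were higher in granulosa cells (7 relative to all genes) and 2 in oocytes, with a median of -0.08. Fst, the activin antagonist follistatin, had the largest difference, -6.04, with 0 to 1950.4 RPM in granulosa cells (median 187, read in 56 cells) and 0 to 25.6 RPM in oocytes (median 0.278). The β subunits were patchy: Inhba was read in 18 and Inhbb in 26 of 57 granulosa cells, with highest values of 3406 and 3629.8 RPM, and the difference of Inhbb, -2.32, became 0.067 with GC073 to GC100 only. The receptors went the other way, Acvr2b with a difference of 3.78 and Acvr1b with 3.67.

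The receptors and mediators of BMP and TGF-β signals lay below all genes in the comparison and all 15 alternatives. Of 16 BMP and TGF-β receptors and SMAD genes, 4 were higher in oocytes and 1 in granulosa cells, against 1 and 8 relative to all genes and 0 and 7 with the logarithm of means, with medians of 0.05 and, for the latter, -1.67. Their median shares of reads were 0.0939% in oocytes and 0.245% in granulosa cells. Amhr2, the receptor for anti-Müllerian hormone, had medians of 289.7 RPM in granulosa cells and 22 RPM in oocytes. The receptors for BMP15 and GDF9, Bmpr1b and Bmpr2, reached 2691 and 1783 RPM in granulosa cells and 803 and 155 RPM in oocytes, and their differences of -1.22 and -1.09 did not pass the threshold as measured. The intracellular mediators Smad2, Smad3 and Smad5 were called on the oocyte side, with differences of 3.04, 3.49 and 3.14, but not with the logarithm of means, where these were 0.47, 0.71 and 0.56.

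Steroid synthesis showed 4 of 18 genes higher in granulosa cells and 3 in oocytes, or 6 and 1 relative to all genes and 12 and 1 with the logarithm of means. The median was 0.09, or -2.49 with the logarithm of means, and the median shares of reads were 0.0226% in oocytes and 0.167% in granulosa cells. The 4 were Hsd17b1, Fshr, Nr5a2 and Nr5a1. Hsd17b1, Fshr and Nr5a2 also stand with the granulosa cell identity genes above, so the counts of these lists are not separate. The aromatase gene Cyp19a1 was read in 9 granulosa cells, with a highest value of 564 RPM, and in 21 oocytes, with a highest value of 17.7 RPM. Hsd17b7, which acts in cholesterol as well as estradiol synthesis, lay on the oocyte side with medians of 23 and 0 RPM.

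**Figure D3:**
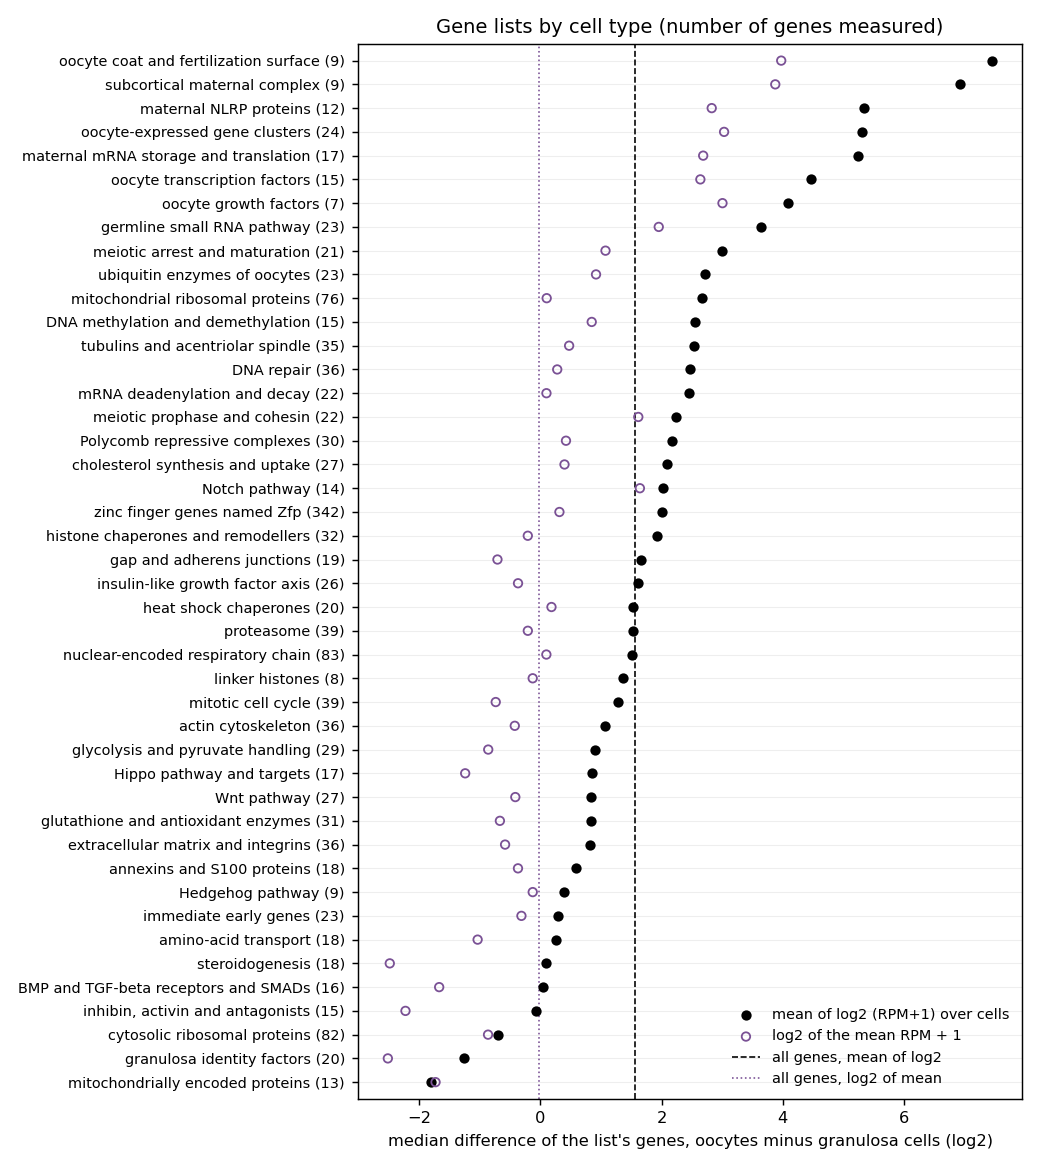
Each row is a gene list with its number of measured genes, and the horizontal axis is the median difference of its genes (oocytes minus granulosa cells, log2), filled for the mean of log2 (RPM+1) and open for the logarithm of mean RPM, with vertical lines at the medians of all genes (1.57 and -0.03). The filled points of the zona, maternal complex, NLRP and oocyte cluster lists lie furthest to the right (7.45, 6.92, 5.33 and 5.31), and the mitochondrial genome, granulosa identity and cytosolic ribosome lists to the left of the line on both scales.

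Intercellular contacts separated by subunit. Gja4, the oocyte connexin, ranged from 143 to 1843 RPM in oocytes (median 989) and from 0 to 512 RPM in granulosa cells (median 1.46), a difference of 7.46. Gja1, the granulosa cell connexin, ranged from 0 to 56.7 RPM in oocytes (median 1.3) and from 60.4 to 1831 RPM in granulosa cells (median 474), a difference of -7.15. The connexins thus lay at the far ends of 1 list. Among its 19 junction genes, 8 were higher in oocytes and 2 in granulosa cells, or 4 and 4 relative to all genes. The list's median of 1.66 changed its side of all genes in 5 alternatives. Cdh1, the epithelial cadherin, had medians of 80.5 RPM in oocytes and 2.45 RPM in granulosa cells. Cdh2, the neural cadherin, had medians of 13.9 and 9.35 RPM and a difference of -0.32.

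In the Notch pathway, 8 of 14 genes were higher in oocytes and none in granulosa cells, 5 and 3 relative to all genes, with a median of 2.03 that dropped below that of all genes with oocytes of primary follicles only. The ligands lay in the oocyte: Jag1 ranged from 21.8 to 495 RPM (median 197) in oocytes and had a median of 0 in granulosa cells, and Jag2 from 26.9 to 509.7 RPM (median 136) in oocytes, also with a median of 0 in granulosa cells. The glycosyltransferases Mfng and Rfng, which tune the receptor, differed by 4.46 and 4.48. Notch2, the receptor of granulosa cells, was low in both, with medians of 6.72 and 5.53 RPM and a difference of -0.25.

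The Hedgehog ligand Ihh lay in granulosa cells, with 0 to 1456 RPM (median 158) against 0 to 45.6 RPM in oocytes (median 0.797), and was the gene of 9 in its list called there. Dhh, at -1.57, did not pass. The pathway's receptor gene Ptch1, which responds to the ligand in theca cells, had a difference of 0.71, and the list's median of 0.38 was below that of all genes in the comparison and all 15 alternatives. Among 27 Wnt pathway genes, 5 were higher in oocytes and 1 in granulosa cells, 2 and 4 relative to all genes, with a median of 0.84. Rspo2, the R-spondin that amplifies Wnt signals, ranged from 9.27 to 847 RPM in oocytes (median 489) and from 0 to 826 RPM in granulosa cells (median 1.52), and Axin2, a target of the pathway, had medians of 31.8 and 0 RPM. In the Hippo list, 5 of 17 genes were higher in oocytes, none relative to all genes, against 3 lower, and the median of 0.84 was below that of all genes except with no filter. Yap1, its transcriptional effector, had medians of 232 RPM in oocytes and 23.8 RPM in granulosa cells.

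Insulin-like growth factor signaling showed a ligand and receptor in granulosa cells. Igf1 ranged from 0 to 2528 RPM in granulosa cells (median 193) and 0 to 45.1 RPM in oocytes (median 0.733), a difference of -5.50, and its receptor Igf1r had medians of 162 and 18.2 RPM. Downstream, Foxo3, the factor that holds primordial follicles at rest, was higher in oocytes, with medians of 239.8 and 1.74 RPM, as were Tsc1 and Mtor, each with a difference of 4.15. Of 26 genes, 10 were higher in oocytes and 2 in granulosa cells (3 and 5 relative to all genes), and the list's median of 1.61 changed its side of all genes in 8 alternatives. In the extracellular matrix and integrin list, 10 of 36 genes were higher in oocytes and 2 in granulosa cells, 3 and 7 relative to all genes, with a median of 0.82. Lamb1, a laminin chain, had medians of 929.8 RPM in oocytes and 3.03 RPM in granulosa cells. Vcan, the proteoglycan versican, and Lama1 had medians of 133 and 222 RPM in granulosa cells and 3.27 and 11.9 RPM in oocytes.

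The cytosolic ribosome took the largest median share of reads among the 44 lists in both cell types. Its 82 genes took 2.86 to 8.32% of oocyte reads, with a median of 5.37%, and 3.87 to 16.2% of granulosa cell reads, with a median of 9.45%. None was higher in oocytes, 4 were higher in granulosa cells and 59 relative to all genes, and the median difference was -0.70, or -0.87 with the logarithm of means. Rpl9 had the largest difference, -3.26, with at least 15 RPM in oocytes and 179 to 3172 RPM in granulosa cells (median 980.4). Rpl3 ranged from 86.1 to 1025 RPM in oocytes and 259 to 5783 RPM in granulosa cells. Processed copies of ribosomal protein genes make the split of their reads uncertain. Within the oocytes, the ribosome's median share was 6.53% in primary and 3.87% in later follicles.

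The mitochondrial ribosome differed from the cytosolic ribosome. Of its 76 nuclear genes, 61 were higher in oocytes and 1 in granulosa cells, 17 and 1 relative to all genes, with a median of 2.67, yet its share of reads was alike in the medians, 0.714% in oocytes and 0.695% in granulosa cells, and the median of the logarithm of means was 0.10. With the logarithm of means 4 genes were higher in oocytes and 3 in granulosa cells. The shares ranged from 0.58 to 0.889% in oocytes and from 0.234 to 1.38% in granulosa cells. Other lists, though not all, also had a wider range in granulosa cells, such as the proteasome list with 0.439 to 0.862% and 0.333 to 1.15%. Mrps36 ranged from 142 to 446 RPM in oocytes (median 233) and from 0 to 397 RPM in granulosa cells (median 3.19), of which 42 had a read. Of the nuclear genes of the respiratory chain, 30 of 83 were higher in oocytes and 1 in granulosa cells, 5 and 9 relative to all genes, and the median shares were 1.46 and 1.61%. Their median of 1.51 changed its side of all genes in 7 alternatives. Cox6b2, the testis-type subunit of cytochrome c oxidase, stood out with 4.04 to 246 RPM in oocytes (median 71.6) and 0 to 55.1 RPM in granulosa cells (median 0).

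The transcripts of the mitochondrial genome lay on the granulosa cell side. Its 13 protein-coding genes took 0.672 to 3.42% of oocyte reads (median 1.38%) and 1.88 to 10.4% of granulosa cell reads (median 5.22%), 7 were higher in granulosa cells and 2 in oocytes, or 10 and 0 relative to all genes, and the median of the logarithm of means was -1.73. The gene mt-Nd1 ranged from 576 to 2952 RPM in oocytes and 1705 to 18336 RPM in granulosa cells, and mt-Co2 from 807 to 4674 RPM and 2754 to 17480.3 RPM. These ranges overlapped. The 2 genes on the oocyte side, mt-Atp8 and mt-Nd4l, overlap their neighbors mt-Atp6 and mt-Nd4 on the genome and had oocyte medians of 12.8 and 24.6 RPM, so the split of reads between them is uncertain.

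**Figure D4:**
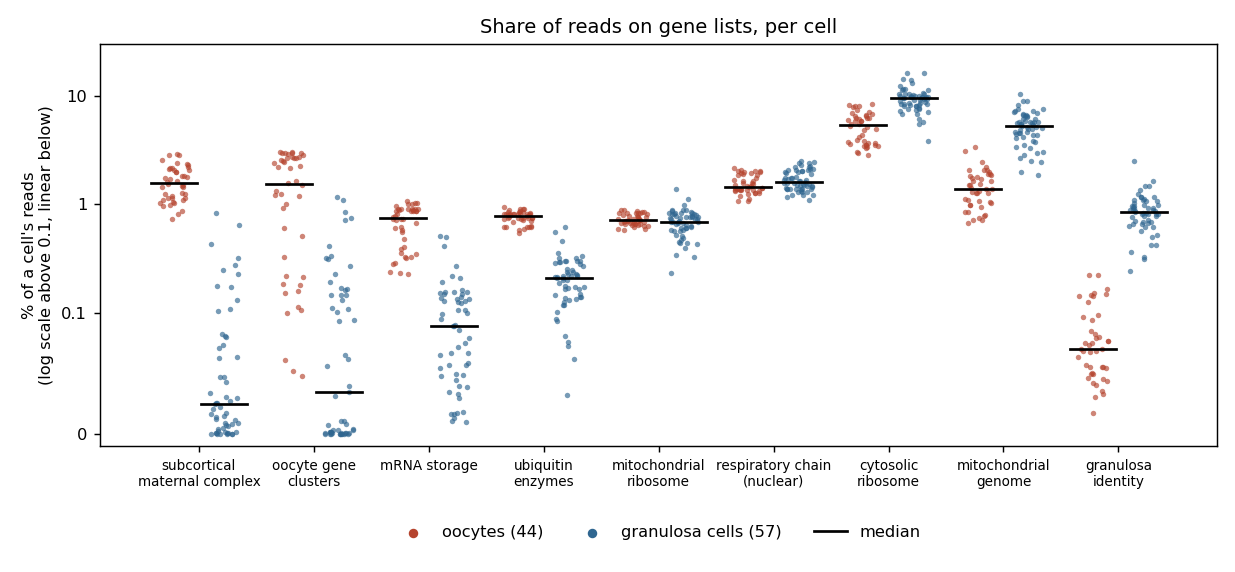
The vertical axis is the percent of a cell's reads on a gene list (log scale above 0.1, linear below), points are single cells and bars medians. The 4 lists on the left lie higher in oocytes, the mitochondrial ribosome and respiratory chain lists overlap with medians of 0.714 and 0.695% and of 1.46 and 1.61%, and the cytosolic ribosome, mitochondrial genome and granulosa identity lists lie higher in granulosa cells.

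Energy and supply pathways divided by enzyme rather than by pathway. In glycolysis and pyruvate use, 11 of 29 genes were higher in oocytes and 3 in granulosa cells, 4 and 7 relative to all genes. The median of 0.90 was below that of all genes except with no filter and with GC073 to GC100 only. Ldha, the lactate dehydrogenase form that favors lactate, ranged from 0 to 62.5 RPM in oocytes (median 3.42) and 0 to 4301 RPM in granulosa cells (median 156), and Ldhb, which favors pyruvate, from 1624 to 9469.5 RPM in oocytes (median 4573) and 4.34 to 4472 RPM in granulosa cells (median 788). The glucose carriers split likewise, Slc2a1 with a difference of 4.26 and Slc2a3 with -2.37. Pdha1 and Dlat, subunits of pyruvate dehydrogenase, were higher in oocytes, with medians of 81.6 and 58.7 RPM and 0 in granulosa cells.

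In cholesterol synthesis and handling, 15 of 27 genes were higher in oocytes and none in granulosa cells. The counts were 7 and 4 relative to all genes and 3 and 4 with the logarithm of means. The median was 2.09, or 0.40 with the logarithm of means, and the median read shares were 0.205 and 0.102%. Hmgcs1, an early enzyme of the pathway, ranged from 26.5 to 479.9 RPM in oocytes (median 259) and from 0 to 364 RPM in granulosa cells (median 3.64). Fdft1, which commits the pathway to sterols, had medians of 749.9 and 77.1 RPM. Mvk and Fdps, enzymes between them, did not pass, with differences of 1.08 and 0.35.

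Amino acid transporters were divided by carrier, and 6 of 18 were higher in oocytes and 3 in granulosa cells, 3 and 6 relative to all genes, with a median of 0.26. Slc6a9, the glycine transporter GLYT1, which regulates the volume of the oocyte, ranged from 149 to 1288 RPM in oocytes and 0 to 132 RPM in granulosa cells. Slc38a3, a glutamine transporter, ranged from 0 to 11.1 RPM in oocytes (median 0) and 0 to 1378 RPM in granulosa cells (median 259), and Slc38a5, a related carrier, had medians of 0 and 50.7 RPM. The differences were 6.42, -5.86 and -4.59.

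Among 31 antioxidant and glutathione genes, 9 were higher in oocytes and 2 in granulosa cells, 4 and 4 relative to all genes. The median of 0.83 lay below that of all genes except with no filter and with oocytes of primary follicles only. Gsta1 and Glrx differed by 5.64 and 5.50, with granulosa cell medians of 0. Ubiquitin enzymes of the germline showed 19 of 23 higher in oocytes and 9 relative to all genes, with a median of 2.72 and read shares of 0.552 to 0.947% against 0.0325 to 0.622%. Uchl1, a deubiquitinase also abundant in neurons, ranged from 1996 to 5421 RPM in oocytes (median 3181) and from 0 to 2080.3 RPM in granulosa cells (median 60.8). The proteasome itself had 14 of 39 genes higher in oocytes and 4 relative to all genes. Its median of 1.52 changed its side of all genes in 5 alternatives, and its median read shares were 0.648 and 0.647%.

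The cytoskeleton and the cell cycle were separated by isotype. Of 35 tubulin and spindle genes, 24 were higher in oocytes and 1 in granulosa cells. The counts were 10 and 4 relative to all genes and 8 and 3 with the logarithm of means. The median of 2.54 was above that of all genes except among genes averaging at least 4. Tubb5, the β-tubulin of dividing cells, ranged from 79.5 to 555 RPM in oocytes (median 211) and reached 6656 RPM in granulosa cells (median 1472). Tubb6, Tubb2a, Tubb2b and Tuba4a differed by 6.53, 6.41, 6.26 and 6.35 in the other direction, with granulosa cell medians of 0. The tubulin genes share long stretches of sequence, so these values carry the uncertainty of similar copies. Among 36 actin genes, 12 were higher in oocytes and none in granulosa cells, and the median of 1.06 was below that of all genes except with no filter and with oocytes of primary follicles only.

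Of 39 cell cycle genes, 15 were higher in oocytes and 3 in granulosa cells, 8 and 6 relative to all genes. The median of 1.28 was below that of all genes except with no filter and with GC073 to GC100 only. The 3 were Ccnd2, the D-type cyclin required for granulosa cell proliferation, its partner Cdk4, and Top2a, a marker of replicating cells. Ccnd2 had medians of 437 RPM in granulosa cells and 37.6 RPM in oocytes, and Top2a 255 and 49 RPM. Ccnb1, the mitotic cyclin that the oocyte also stores for meiosis, had medians of 638 RPM in oocytes and 22.8 RPM in granulosa cells, and was 122 RPM in primary and 975 RPM in later follicles. Mki67, another marker of cycling cells, did not separate the types, with medians of 164 and 155 RPM.

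Pairs of related genes were compared, in each of which 1 member was taken as the oocyte-associated form. Some of these, such as Ldhb, Cnot6l, Zfp36l2 and Slc16a7, are also expressed in many somatic tissues. The measure was the oocyte-associated member's share of the pair's mean RPM. In all 23 measured pairs this share was larger in oocytes. The pairs were chosen for a known oocyte form and with earlier results of these data known. The count therefore describes them and tests nothing. Rec8, beside Rad21, rested on 31 reads in oocytes and 1 in granulosa cells. The oocyte-associated member was the majority of the pair in 15 pairs in oocytes and in 7 in granulosa cells, and in 8 pairs in oocytes only. In the 21 pairs with both members examined, the oocyte-associated member's difference was the larger in 18, 20 oocyte-associated members were higher in oocytes, and 13 of the relatives were higher in oocytes as well. Gja1 and Ldha were the relatives that were higher in granulosa cells. For Gja4 and Gja1, the share of Gja4 was 99.4% in oocytes and 7.67% in granulosa cells. For the nucleoplasmins, Npm2 took 60.9% and 2.95%, and Npm1, the nucleolar form, had medians of 573 and 939.6 RPM. For the Y-box proteins, Ybx2 took 73.6% and 3.5%, and for the cap-binding proteins Eif4e1b took 53.6% and 4.82%, where Eif4e itself was called on the oocyte side, with a difference of 2.22 that was -0.013 with the logarithm of means. For lactate dehydrogenase, Ldhb took 99.9% and 69.5%.

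Some pairs shifted less. Padi6 took 99.9% of its pair with Padi2 in oocytes and 99.8% in granulosa cells, and Dnmt3l 38.2% and 35.9% of its pair with Dnmt3b. Kpna7, the oocyte importin, took 15.8% and 12.4% beside Kpna2, and there the relative had the larger difference, 3.09 against 2.23. Without GC073 to GC100, the granulosa cell share was, for example, 1.19% for Ybx2, 0.491% for Npm2 and 3.85% for Gja4.

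**Figure D5:**
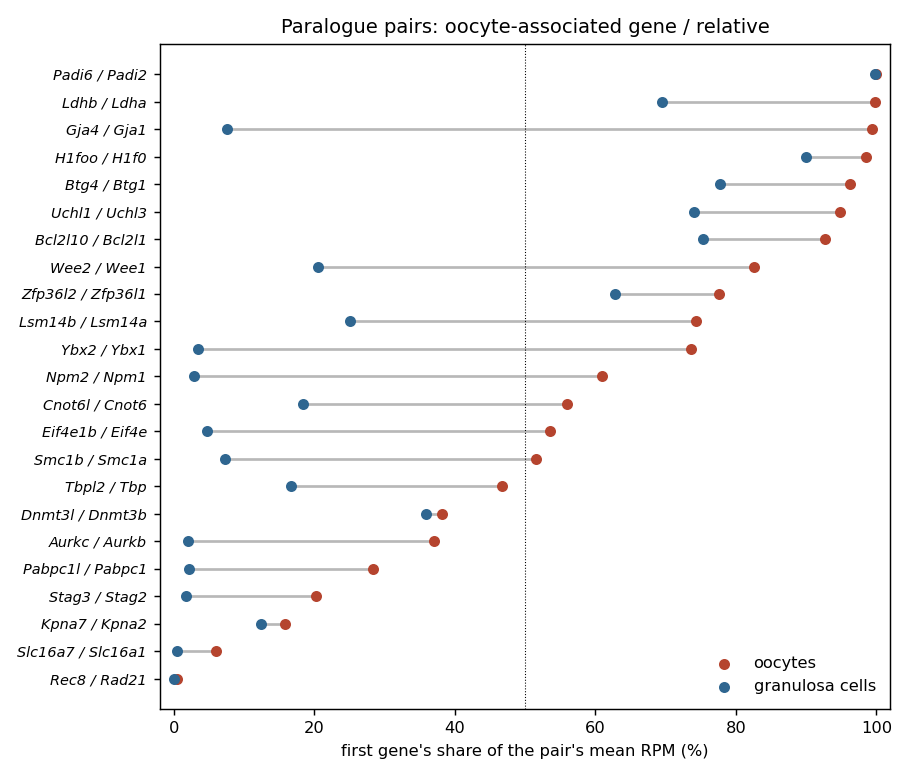
Each row is a pair of related genes, oocyte-associated gene named first, and the horizontal axis is its share of the pair's mean RPM (percent) in oocytes and in granulosa cells, joined by a line. The oocyte point lies to the right in all 23 pairs, furthest apart for Gja4 and Gja1 (99.4 and 7.67%).

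The same differences were computed in 5 other preparations of the series, in which ovaries were processed in other ways: 18 oocytes and 34 granulosa cells with the SMART-Seq v4 kit, 15 and 39 with DRaqL-SMART-Seq v4, 12 and 24 from formalin-fixed sections, 8 and 70 cut from sections and 14 and 35 dissociated from the same mouse. The study describes that mouse as in proestrus. Its dissociated cells came from cumulus-oocyte complexes of fully grown follicles, handled with a cyclic AMP analog. The dissociated granulosa cells included cells with mixed profiles, which the DRaqL-SC3-seq comparison leaves out. Follicle stage and cell selection thus differed there as well as processing. By the study's account the section protocols it set side by side, DRaqL-SC3-seq included, shared an ovary, and the last pair of preparations shared a mouse, so like values across preparations need not stand for separate animals. Of the genes higher in oocytes in the DRaqL-SC3-seq cells, 83.7%, 58%, 56.3%, 73.6% and 67.7% passed the threshold in the same direction in these preparations, in that order, against 51%, 30.4%, 31.5%, 41.6% and 42.2% of all genes examined in both. Of those higher in granulosa cells, 35%, 75.9%, 59.2%, 75.9% and 76.7% passed in the same direction, against 1.16%, 3.97%, 3.28%, 5.17% and 8.88% of all genes. The share was above the background in each preparation and direction. The 9 genes of the subcortical maternal complex were higher in oocytes in all 5, and so were the 24 genes of the oocyte clusters.

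The groups that lay on the granulosa cell side kept the order of their shares. The cytosolic ribosome took median shares of 5.18, 4.4, 2.27, 1.22 and 1.23% in oocytes and 10.2, 12.2, 4.31, 2.44 and 5.8% in granulosa cells, in the order of preparations above, and the mitochondrial genome 1.38, 0.725, 2.59, 0.288 and 0.521% against 2.61, 2.13, 4.44, 1.32 and 4.13%. Called higher in granulosa cells were 1, 6, 0, 6 and 40 genes of the cytosolic ribosome and 0, 0, 0, 4 and 9 of the mitochondrial genome. Called higher in oocytes were 1, 1, 0, 0 and 0, and 1, 0, 0, 0 and 0. Granulosa identity genes were higher in granulosa cells in 5, 12, 8, 14 and 12 cases. Calls for the mitochondrial ribosome varied, with 69, 33, 31, 58 and 26 of 76 genes higher in oocytes, and its median shares were 0.98 and 0.683%, 0.931 and 0.931%, 0.395 and 0.397%, 0.554 and 0.356%, and 0.849 and 1.05% in oocytes and granulosa cells. The glutamine transporter gene Slc38a3 had differences of -3.16, -5.42, -4.43, -5.46 and -4.17, and Ldha -1.61, -3.01, -0.85, -3.70 and -7.32, so that Ldha did not pass the threshold with the SMART-Seq v4 kit or in formalin-fixed sections.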

How the data were processed

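The authors trimmed reads with fastp and cutadapt, aligned them to GRCm38 with HISAT2 and counted reads per gene with HTSeq, using the positions within 10 kb of annotated 3′ ends, as given in the methods and the submitters' processing notes. The deposited tables hold raw counts per gene (22060 genes), with no normalization. From them RPM was computed per library with python 3.11.15, numpy 2.4.6 and pandas 2.3.3, and no cells were pooled. Groups came from the labels. No p-value was computed because each cell type is 1 sample, and the procedure was tested on simulated counts. The simulated cell types shared gene proportions and spread apart from planted changes. That test therefore does not cover the shift over all genes seen in the data. The differences, threshold (1.8) and filter (4) are those given in the report. 

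Genes were named by rule: the 4 markers, up to 10 genes per direction with the largest differences among those averaging at least 4 and without overlap, up to 4 members of each list with the largest differences or that define the pathway, and members of pairs. Other genes named were chosen after their values were seen. Members and lists were chosen with earlier results of these data known. Lists of other ovarian cell types were theca, endothelium, blood, smooth muscle and luteal markers. RefSeq promoters matched 11849 of 15176 genes (78.1%), so that the shares of promoters with 11 motifs, computed by gene set, are void and are not reported. Alternatives used other pseudocounts, scaling (TMM in edgeR 4.0.16, size factors in DESeq2 1.42.0), thinning, filters, thresholds and cell subsets. A few genes are not reported here.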

Additional observations from a re-analysis of the deposited data

How the results depend on the processing

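The number of genes higher in oocytes (6882) became 2238 with a pseudocount of 10, 2463 with the logarithm of mean RPM, 3482 with a threshold of 3 and 2626 relative to the all-gene median, an alternative chosen after seeing the data. The number higher in granulosa cells (290) became 174, 1928, 86 and 1649 under these, 449 with DESeq2 size factors and 676 with a threshold of 1. Genes without overlap and higher in oocytes (17) were 9 after thinning, 10 with TMM, 10 with DESeq2 size factors, 94 with oocytes of later follicles, 41 with oocytes of primary follicles, 27 and 81 with neighboring and non-neighboring granulosa cells, 47 with GC001 to GC069 and 61 with GC073 to GC100. Those higher in granulosa cells (1) were 0 after thinning, 2 with TMM, DESeq2 size factors, oocytes of later follicles, neighboring cells and GC001 to GC069, 3 with non-neighboring cells and 5 with GC073 to GC100. The subsets hold fewer cells, and for the other settings the cause was not tested. With the logarithm of means the differences of Aurkb (-1.34), Btg2 (-0.29), Eif4e (-0.013), Nf2 (-0.11), Stk4 (-0.61) and Wee1 (-0.36) and the median of the chromatin remodelers and chaperones (-0.21) reversed, and the difference of Inhbb (0.067) reversed with GC073 to GC100. Beyond these reversals, 123 of the 234 named-gene differences and 36 of the 44 list medians were marked as moved with the logarithm of means. Some of these medians changed sign, such as that of the junction list, from 1.66 to -0.71. Relative to all genes, 8 list medians were marked as moved on that scale. Lists above the all-gene median (23 of 44) and with larger read shares in oocytes (29 of 44) stayed within 1.5 times of these counts in the alternatives run, and the immediate early list had no member left among genes averaging at least 4. No paired analysis was possible because the result comes from no test and cells share no replicate numbers. With every library thinned to 162033 reads, 6434 genes were higher in oocytes and 341 in granulosa cells.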

Other observations

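The X-linked genes were examined beside the autosomal ones, since a growing oocyte is known to keep both X chromosomes active while granulosa cells inactivate a copy. Over 569 X-linked genes the median difference was 1.10, and over 14531 autosomal genes 1.59. Among genes averaging at least 4 in a cell type, the medians were 2.75 for 225 X-linked and 2.73 for 7225 autosomal genes. The X-linked share of reads ranged from 2.36 to 3.87% in oocytes (median 2.63%) and from 2.27 to 4.46% in granulosa cells (median 3.17%), with overlap. Positions were found for 15120 of the 15176 genes.

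Zinc finger genes named Zfp, the largest list, had 181 of 342 members higher in oocytes and 1 in granulosa cells. The counts were 68 and 28 relative to the median of all genes and 73 and 46 with the logarithm of means. The median difference was 2.00. Zfp473 had medians of 93 RPM in oocytes and 0 in granulosa cells, and Zfp57, which protects imprinted methylation, 46.2 and 0 RPM. In DNA repair, 25 of 36 genes were higher in oocytes and 6 relative to all genes, with a median of 2.46. The latter count was near the 17.3% of all examined genes that passed relative to the median. With the logarithm of means 4 repair genes were higher in oocytes and 2 in granulosa cells. Trp63, the guardian of the oocyte genome, had medians of 33.9 and 0 RPM, and Chek1, the checkpoint kinase, had a difference of 4.65.

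Of 23 immediate early genes 5 were higher in oocytes and none in granulosa cells, 1 and 3 relative to all genes and 4 and 6 with the logarithm of means. Their median of 0.29 was below that of all genes in the comparison and in all 14 alternatives that left a member, and their median read shares were 0.0122 and 0.0115%. Among them, Fos was read in 3 oocytes and 5 granulosa cells. Of 20 heat shock genes, 8 were higher in oocytes and 1 in granulosa cells, and the list's median of 1.52 changed its side of all genes in 6 alternatives. Of 18 annexin and S100 genes, 3 were higher in oocytes, among them Anxa7 with a difference of 5.29, and the list's median of 0.58 was below that of all genes except among genes averaging at least 4.

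Markers of other ovarian cell types were low at the median. The theca list had 0 of 8 genes called in either direction, endothelium 1 of 5, blood 0 of 5, smooth muscle 1 of 4 and luteal cells 0 of 4. With the logarithm of means, 3 theca, 3 luteal, 1 blood and 1 smooth muscle genes were higher in granulosa cells. In oocytes 1 endothelial and 1 smooth muscle genes were higher on that scale. The list medians there were -1.48 for theca and -2.48 for luteal markers. Each list's share of reads was at most 0.0107% at the median of either cell type, and the highest single granulosa cell held 0.425% for theca and 0.505% for luteal markers. The smooth muscle gene called higher in oocytes, Myh11, ranged from 2.3 to 436 RPM there (median 99.4).

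Spike-in RNA was counted in 3 of the other preparations. Gene reads per spike-in read had medians of 29.6 in oocytes and 1.51 in granulosa cells with the SMART-Seq v4 kit, 32.1 and 2.88 with DRaqL-SMART-Seq v4, and 19.6 and 1.13 in formalin-fixed sections.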
